A study of Mus musculus with 3 samples.

Results

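The genes described here are 10 genes of red cell production and iron handling, taken from a fixed list of names and read in polysomal RNA of mouse bone marrow cells: the adult alpha globins Hba-a1 and Hba-a2, the adult beta globins Hbb-bs and Hbb-bt, the heme synthesis genes Alas2 and Fech, the red cell membrane gene Slc4a1, and the iron genes Tfrc, Fth1 and Ftl1. All 10 were found among the 48795 gene identifiers of the deposited tables. The study set bone marrow cells of wildtype mice (WT, 2 libraries) beside those of mice with the genotype Mat KO (1 library), under a title that links snoRNAs encoded at Dlk1-Gtl2, an imprinted locus, to modified rRNA and to translation. All 3 samples were exposed to cycloheximide, which stalls ribosomes on their mRNAs, at 100 µg/ml for 10 min at 37 °C, before polysomes were parted on a sucrose gradient of 10% to 50%. The sources used here do not state strain, age, sex, the number of mice per library, the gradient fractions taken or what the abbreviation Mat stands for. The Mat KO library has no replicate, so no spread can be given for that genotype.

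A hemoglobin molecule joins alpha and beta globin chains, each around a heme, so red cell precursors have to match the supply of both chains and of heme. Heme is built from glycine through porphyrin intermediates, with the first and the last step inside the mitochondrion, and its iron enters the cell bound to transferrin through the transferrin receptor. Ferritin shells of heavy and light chains store the iron that is not used. Iron sets the translation of several of these mRNAs through iron responsive elements, short hairpins in the untranslated regions (UTRs) that iron regulatory proteins bind.

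The content of the libraries bears on every value below. Gene counts summed to 64547 (WT 1), 239429 (WT 2) and 125871 (Mat KO), of which the 4 most counted features (mt-Rnr1, mt-Rnr2, Lars2 and CT010467.1) took 67.6%, 99.0% and 88.5%. Outside these 4 features 20903, 2301 and 14430 counts were left, and shares are given per 10000 of these. Where 3 counts are given together for a gene or list, they are those of WT 1, WT 2 and Mat KO, in that order. A count of 0, with 3 counts taken as its upper limit, allowed up to 13.04 per 10000 in WT 2 and up to 2.08 in the Mat KO library. Of 21758 nuclear protein-coding genes, 19.3% had a count in WT 1, 1.74% in WT 2 and 2.63% with Mat KO. Genes with a count numbered 4349 in WT 1, 425 in WT 2 and 642 with Mat KO, at a median count of 2, 1 and 9.5. With Mat KO 321 of the 642 had 10 or more counts and 141 had 1. In WT 1 these numbers were 413 and 1946 of 4349, so the Mat KO reads sat on few genes. Intervals and limits cover counting error only, and take each read as an independent molecule. Limits would be higher and fold bounds lower if several reads came from 1 molecule, which was not tested.

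The sequences of the globin copies set what the counts can tell apart. Over their coding sequence of 429 bases Hba-a1 and Hba-a2 differed at 1 base, C381T, counted from 1 at the first base of the start codon with the base of Hba-a1 first. Hbb-bs and Hbb-bt differed at 1 of 444 coding bases, C417T, with the base of Hbb-bs first. The stretches around these bases are shown because a read wholly inside the coding sequence can be placed on a single copy only if it covers the base in capitals. They lie in the last exons at chr11:32284313-32284373 (Hba-a1, plus strand), chr11:32297130-32297190 (Hba-a2, plus strand), chr7:103826665-103826722 (Hbb-bs, minus strand) and chr7:103812656-103812713 (Hbb-bt, minus strand), in the GENCODE M21 transcripts on GRCm38.
Hba-a1: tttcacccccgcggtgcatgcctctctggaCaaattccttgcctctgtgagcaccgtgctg
Hba-a2: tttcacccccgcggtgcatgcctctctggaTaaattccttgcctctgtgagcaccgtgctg
Hbb-bs: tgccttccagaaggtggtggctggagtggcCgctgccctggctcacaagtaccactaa
Hbb-bt: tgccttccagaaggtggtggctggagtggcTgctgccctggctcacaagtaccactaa

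Windows of 50 bases along the main coding transcript were compared with the transcripts of all other genes. In Hba-a1 32.5% of 650 windows were found in no other gene, in Hba-a2 13.1% of 505, in Hbb-bs 34.2% of 579 and in Hbb-bt 41.7% of 654, and every shared window lay in the partner copy of the same globin. In Hba-a1, 147 of the 211 windows of its own lie before the coding sequence, in an annotated transcript start that Hba-a2 lacks. Among the iron genes, Fth1 kept 93.4% of 880 windows to itself, whereas Ftl1 kept 9.36% of 919 and shared the others with 17 genes, 8 of them annotated pseudogenes. Of these 17 genes, 16 are in the tables and had 0 counts together in each library. All windows of Slc4a1 and Tfrc, 86.2% of those of Alas2 and 93.5% of those of Fech were their own. Reads aligned to several places were kept out of the gene counts by the authors, 31794 reads in WT 1, so globins and Ftl1 are counted only from the stretches that mark them. Reads ambiguous between genes were left out too, 33.5% (WT 1), 74.3% (WT 2) and 66.1% (Mat KO) of the reads recorded. Of the exon bases, 65.4% in Ftl1 and 84.5% in Alas2 were free of another gene's exons on either strand. The sources used here do not state the read length.

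The globin genes had counts in WT 1 alone. Hbb-bs (ENSMUSG00000052305, chr7:103826534-103828096), the more counted adult beta globin, had 168, 0 and 0 counts. Hbb-bt (ENSMUSG00000073940, chr7:103812524-103813996), its neighbour, had 54, 0 and 0 counts. Hba-a1 (ENSMUSG00000069919, chr11:32283511-32284465), an adult alpha globin, had 139, 0 and 0 counts. Its copy Hba-a2 (ENSMUSG00000069917, chr11:32296489-32297298) had 40, 0 and 0 counts. The WT libraries thus lay apart, and the Mat KO library shared the 0 of WT 2, so the groups overlapped for each globin. In WT 1, Hbb-bs was the 3rd and Hba-a1 the 5th most counted of 4209 nuclear protein-coding genes with a count, Lars2 not included, and Hbb-bt and Hba-a2 ranked 19th and 30th.

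Together the globins lay at 191.8 per 10000 in WT 1 (95% Wilson interval 174 to 211). At the same share, and with each read taken as an independent molecule, 277 counts would be expected for Mat KO and 44.1 for WT 2. The share of Hbb-bs in WT 1 was 80.4 per 10000 (69.1 to 93.4), at least 38.7-fold higher than the Mat KO library and at least 6.16-fold higher than WT 2 allowed. For Hba-a1, at 66.5 (56.4 to 78.5), the bounds were 32.0-fold and 5.10-fold. The WT libraries thus differed in both genes by more than counting error, and with 2 WT libraries this sets their spread. For Hbb-bt, at 25.8 (19.8 to 33.7), the bounds were 12.4-fold against the Mat KO library and 1.98-fold against WT 2, and for Hba-a2, at 19.1 (14.1 to 26.0), 9.20-fold and 1.47-fold. On the scale of nuclear protein-coding counts without Lars2, the bound of Hba-a2 against WT 2 was lost and the others fell to between 1.18-fold and 24.2-fold. The bounds take WT 1 at its observed share, with 3 counts per library as the limit of a count of 0.

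**Figure D1:**
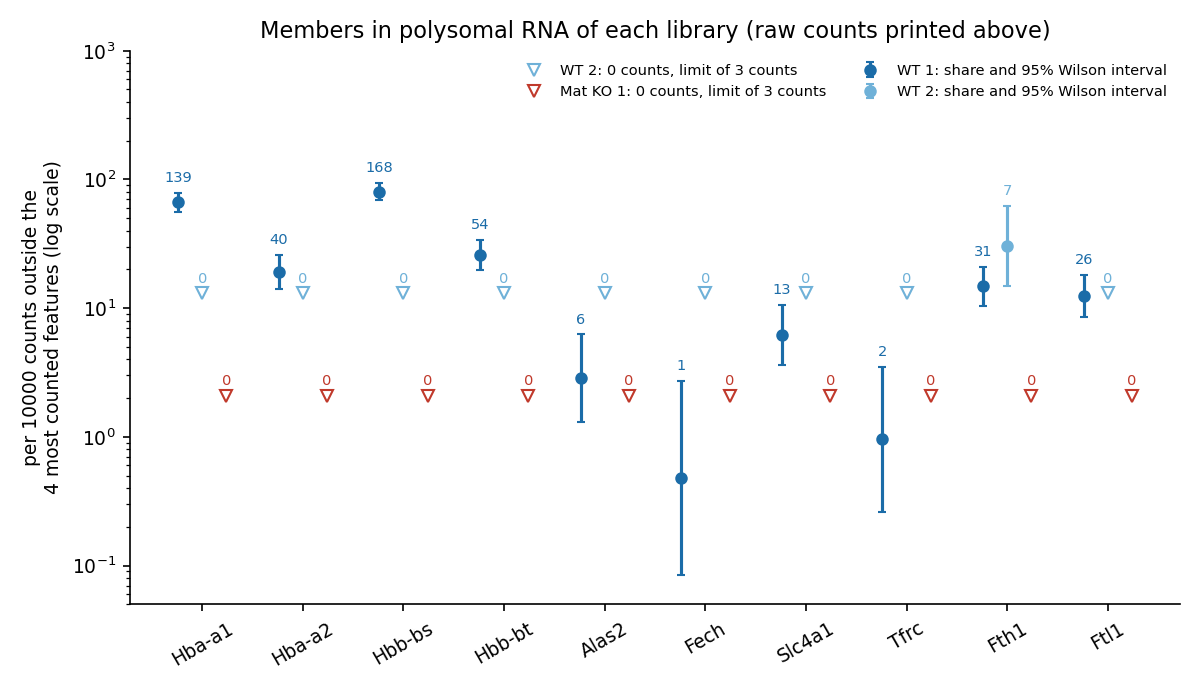
Share of each gene per 10000 counts outside the 4 most counted features (log scale), by library, with 95% Wilson intervals for filled points and raw counts printed. Open triangles mark libraries with 0 counts, at the limit that 3 counts set. All 10 genes are filled for WT 1, only Fth1 with its 7 counts for WT 2, and none for Mat KO.

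Within WT 1 the balance of alpha to beta globin was near even, and its side depended on how the copies were weighted. Alpha globin had 179 counts and beta globin 222, so alpha made up 44.6% of 401 globin counts (exact Clopper-Pearson 95% interval 39.7 to 49.7), or 0.806 alpha counts per beta count. Per kilobase of exon, the alpha share was 43.9%. Per window of 50 bases found in no other gene it was 54.7%, and per such window touching the coding sequence 60.0%. With windows of 75 and 100 bases it was 49.6% and 45.6%. Outside WT 1 no balance can be given, since each globin had 0 counts there. The embryonic and minor globins of a list of 10, Hba-x, Hbb-y and Hbb-bh1 among them, had 0 counts in every library.

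The copies of each globin were counted unevenly in WT 1. Hba-a1 had 3.48 times the counts of Hba-a2 (exact interval 2.43 to 5.07). Per window of their own the ratio was 1.09 (0.760 to 1.59), which takes in the 147 windows before the coding sequence of Hba-a1. Hbb-bs had 3.11 times the counts of Hbb-bt (2.28 to 4.31), and 4.29 times (3.14 to 5.94) per window of their own. The excess of Hbb-bs thus held on both scales. That of Hba-a1 was within counting error on the second, which spreads its counts over 211 windows against 66 for Hba-a2. Of windows touching the coding sequence Hba-a1 had 64 and Hba-a2 50, so the fall to 1.09 rests largely on the 147 windows before it. No loss of the Hba-a1 excess is therefore read from that ratio.

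The heme synthesis genes were counted thinly. Alas2 (ENSMUSG00000025270, chrX:150547375-150570638), the red cell form of the enzyme of the first step, had 6, 0 and 0 counts. Its 2.87 per 10000 in WT 1 (1.32 to 6.26) was 1.38 times the limit of the Mat KO library, but the lower end of its interval lay under that limit, so no difference was detectable at this depth. Fech (ENSMUSG00000024588, on chromosome 18), which puts iron into protoporphyrin in the last step, had 1, 0 and 0 counts, under the limit of each other library. Of the 15 listed genes of heme synthesis and its mitochondrial carriers, 10 had a count in WT 1, 24 counts in all, and 0 had one elsewhere. Tmem14c, which is needed for porphyrin import into mitochondria, had 6, 0 and 0 counts, and Alas1, the form of the first enzyme used outside red cells, 4, 0 and 0. Alad, the enzyme of the second step, had 2, 0 and 0 counts and Urod, a later enzyme, 1, 0 and 0. Uros, Abcb6 and Abcb10 had 0 counts in every library. In heme breakdown and export 3 of 7 listed genes had a count, in WT 1 only: Blvrb, a biliverdin reductase, with 8, 0 and 0, Slc48a1, a heme transporter, with 5, 0 and 0, and Hmox1, the heme oxygenase that opens the ring, with 1, 0 and 0.

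Slc4a1 (ENSMUSG00000006574, chr11:102348824-102366203), the anion exchanger band 3 of the red cell membrane, had 13, 0 and 0 counts. At 6.22 per 10000 in WT 1 (3.64 to 10.6) it lay at least 2.99-fold higher than the Mat KO library, while WT 2 was too shallow to show it. Of the 24 listed genes of the red cell membrane and its skeleton, 13 had a count in WT 1, 0 did in WT 2 and 1 did with Mat KO. That gene was Epb41, the skeleton protein 4.1, with 10, 0 and 8 counts, or 4.78 per 10000 in WT 1 and 5.54 with Mat KO. Add1, an adducin of the same skeleton, had 12, 0 and 0 counts, Cd47 8, 0 and 0, and the water channel gene Aqp1 5, 0 and 0. Ank1, the gene of the skeleton protein ankyrin, had 0 counts in every library.

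A count outside WT 1 was found for a single gene of the 10, Fth1. Fth1 (ENSMUSG00000024661, chr19:9980598-9985098), the heavy ferritin chain that oxidises iron, had 31, 7 and 0 counts. The Mat KO library lay below both. For WT 2, where 285 of 425 genes with a count had 1, Fth1 ranked 37th of 378 nuclear protein-coding genes with a count. Its share was 14.8 per 10000 (10.5 to 21) in WT 1 and 30.4 (14.7 to 62.7) in WT 2, a ratio of WT 2 to WT 1 of 2.05 (exact interval 0.762 to 4.75), so the WT libraries did not differ beyond counting error. Per 10000 nuclear protein-coding counts that ratio was 3.44 (1.28 to 7.97), and over all gene counts 0.0609 (0.0226 to 0.141). WT 1 lay at least 7.13-fold above the limit of the Mat KO library, where 21.4 counts would have matched its share. Of 127 genes with at least 20 counts in WT 1, 31.5% had a count with Mat KO and 26.8% had one in WT 2, so most genes of that level were at 0 there.

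Ftl1 (ENSMUSG00000050708, chr7:45457944-45459884), the light ferritin chain, had 26, 0 and 0 counts. At 12.4 per 10000 (8.49 to 18.2) in WT 1 it lay at least 5.98-fold above the limit of the Mat KO library and under that of WT 2. Fth1 had 1.19 times the counts of Ftl1 in WT 1 (0.685 to 2.09), which does not part them. The order turned once length was allowed for. Per kilobase of exon Fth1 lay at 0.461 times Ftl1 (0.265 to 0.808), and per window of 50 bases of their own at 0.125 times (0.0717 to 0.219). Tfrc (ENSMUSG00000022797, chr16:32608920-32632794), the transferrin receptor, had 2, 0 and 0 counts, under the limit of both other libraries.

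The iron responsive elements of these genes are shown because they tie iron to the polysomal loading of ferritin and Alas2 mRNA and to the stability of Tfrc mRNA. UTRs were searched on the sense strand for a C, any 5 bases and then CAGTGN, in which those 5 bases pair with the 5 after it, G with T allowed. Of 19907 genes, 0.0954% held a match in the 5′ UTR of their main transcript, and of 20500 genes 0.507% held it in the 3′ UTR. Fth1, Ftl1 and Alas2 each held 1 match in the 5′ UTR, and Tfrc 4 in the 3′ UTR, of which the first is shown. The globins and Slc4a1 held 0, and Fech was not searched. The sites lie at chr19:9982732-9982761 (Fth1, plus strand), chr7:45459778-45459807 (Ftl1, minus strand), chrX:150547458-150552150 (Alas2, plus strand, its 30 bases parted by an intron) and chr16:32631219-32631248 (Tfrc, plus strand), with the loop CAGTGN in capitals.
Fth1: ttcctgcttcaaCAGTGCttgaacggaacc
Ftl1: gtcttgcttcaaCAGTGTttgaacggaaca
Alas2: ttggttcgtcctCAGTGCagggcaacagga
Tfrc: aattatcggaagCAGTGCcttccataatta
Each of these genes held a match, and Fth1 was counted in both WT libraries, whereas Ftl1, Alas2 and Tfrc were counted in WT 1 only. At their WT 1 shares, 2.86 (Ftl1), 0.660 (Alas2) and 0.220 (Tfrc) counts would be expected in WT 2. These lie under its limit of 3 counts, so no contrast with Fth1 is read from their counts of 0. The tables hold no total RNA, so how much of each mRNA was on polysomes cannot be read from them.

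Among the other iron genes the counts of WT 1 were led by genes known from liver and neutrophils. Of 14 listed iron uptake and export genes, 8 had a count in WT 1, 91 counts in all, and 0 in the other libraries. Trf, transferrin, had 40, 0 and 0 counts, Hamp, the hormone hepcidin made by liver, 28, 0 and 0, and Cp, ceruloplasmin, 8, 0 and 0. Slc25a37, the mitochondrial iron carrier of red cell precursors, had 7, 0 and 0 counts. Beside Fth1 and Ftl1, the list of iron storage and its regulators held Lcn2, a siderophore-binding protein of neutrophil granules, with 39, 0 and 0 counts, and the iron chaperone Pcbp1 with 5, 0 and 0. Ncoa4, the receptor for ferritin turnover, had 4, 0 and 0 counts and Pcbp2 2, 0 and 0.

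Liver and neutrophil genes lay highest in WT 1, as did most iron genes, while the macrophage list had its highest share in WT 2. Liver secreted protein genes, a list of 20 that includes Trf, had counts for 20, 2 and 0 genes, at 352 (327 to 377), 113 (77.2 to 165) and 0 per 10000. Alb, serum albumin, led them with 176, 14 and 0 counts, before Apoa1 with 76, 12 and 0, Ttr with 75, 0 and 0 and Apoa2 with 50, 0 and 0. Macrophage genes, a list of 15, had counts for 9, 1 and 1, at 125 (111 to 141), 269 (211 to 344) and 12.5 (7.89 to 19.7) per 10000, and outside WT 1 all their counts were from Apoe, with 158, 62 and 18. Lyz2, the lysozyme of myeloid cells, had 58, 0 and 0 counts, and the lysosomal protease genes Ctsd and Ctsb 17, 0 and 0 and 11, 0 and 0. Of the markers more particular to macrophages, C1qb had 9, 0 and 0 counts, Vcam1 5, 0 and 0, C1qa 2, 0 and 0, and C1qc and Csf1r 1, 0 and 0 each, while Cd68, Adgre1, Cd163, Spic, Mrc1 and Marco had 0 counts in every library. Neutrophil granule genes, which include Lcn2, lay at 246 (226 to 268) per 10000 in WT 1, with 11 of 12 counted, and at 0 in both others, led by S100a8 with 137, 0 and 0, S100a9 with 133, 0 and 0 and Ngp with 87, 0 and 0. The part of these cells in the counts of Fth1, Ftl1 and the other iron genes was not tested, and fewer cells of a type and less RNA per cell cannot be told apart in these libraries.

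Megakaryocyte, B and plasma cell and skeletal muscle markers were also counted almost only in WT 1, whereas pancreatic acinar markers were not. Megakaryocyte and platelet genes had 36, 0 and 0 counts, with Ppbp at 17, Vwf at 9, Pf4 at 7 and Itga2b at 2 in WT 1 alone. B and plasma cell genes had 155, 0 and 1 counts, led by Igkc with 79, 0 and 1, Ighg2b with 32, 0 and 0, Ighg1 with 27, 0 and 0 and Jchain with 9, 0 and 0. Skeletal muscle genes had 288, 0 and 0 counts, led by Myh4, Acta1, Tnnt3 and Atp2a1. Pancreatic acinar genes had 1, 16 and 875 counts, led by Ctrb1, Pnlip, Cela1 and Try4, and were the only list at its highest share in the Mat KO library. The Mat KO library, with 0 counts of the 10 genes, held these acinar genes at 606 per 10000 (569 to 646), against 0.478 (0.0844 to 2.71) in WT 1. WT 1 in turn held liver secreted protein genes at 352 and skeletal muscle genes at 138 (123 to 154) per 10000, both at 0 with Mat KO. Where these counts came from, and their part in the counts of 0, was not tested.

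The regulators of red cell production were sparse in every library. Of 14 erythroid transcription factor and receptor genes 7 had a count in WT 1, 26 counts in all, and 0 had one elsewhere. Nfe2, a factor that acts at globin genes, had 12, 0 and 0 counts, and Myb, a factor of early precursors, 9, 0 and 0. Lmo2 and Ldb1, which link such factors, had 1, 0 and 0 each, and Gata1, Klf1, Tal1, Gfi1b and Epor had 0 counts in every library. Of 19 genes of late red cell enzymes and maturation, 11 had a count in WT 1 and 1 had one with Mat KO, which was Bpgm, the enzyme of 2,3-bisphosphoglycerate, with 3, 0 and 14 counts. Gpx1 and Prdx2, which clear peroxides, had 23, 0 and 0 and 13, 0 and 0 counts, and Isg20 8, 0 and 0. Over the 107 listed red cell and iron genes other than the 10, WT 1 had counts for 53 and 151 per 10000 (136 to 169), WT 2 had 0 counts, and the Mat KO library had counts for 2 and 15.2 per 10000 (10.1 to 23.1). Of the lists that fit the label of marrow, neutrophil granule genes lay at 246, globins at 191.8 and macrophage genes at 125 per 10000 in WT 1. B and plasma cell genes lay at 74.2 and megakaryocyte and platelet genes at 17.2. All were below the liver secreted protein genes at 352, which were the highest list there. Outside WT 1 the neutrophil, globin, B cell and megakaryocyte lists held 1 count, with Mat KO. The macrophage list had 62 counts in WT 2 and 18 with Mat KO, all from Apoe.

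Levels of the genes within WT 1, compared per kilobase of exon, ran from the globins through ferritin to the heme and receptor genes. Hbb-bs lay at 219 counts per kilobase (exact Poisson interval 187 to 254) and Hba-a1 at 171 (144 to 202), intervals that overlap. Hbb-bt at 76.8 (57.7 to 100.2) and Hba-a2 at 60.0 (42.8 to 81.7) overlapped with each other and lay below both. The ferritin genes came next, Ftl1 at 19.4 (12.7 to 28.4) and Fth1 at 8.94 (6.07 to 12.7), whose intervals meet only at their ends. Slc4a1 at 2.66 (1.42 to 4.55) and Alas2 at 2.50 (0.916 to 5.43) did not differ beyond their error. Tfrc at 0.323 (0.0392 to 1.17) and Fech at 0.0723 (0.00183 to 0.403) overlapped with each other and were lowest, and the interval of Tfrc also overlapped with that of Alas2. Per 100 windows of their own the globins ranged from 19.8 (14.9 to 25.8) for Hbb-bt to 84.8 for Hbb-bs. Ftl1, at 30.2 (19.7 to 44.3), overlapped on this scale with Hbb-bt and with Hba-a2 at 60.6 (43.3 to 82.5). The gap between ferritin light chain and globin thus depended on the measure of length.

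**Figure D2:**
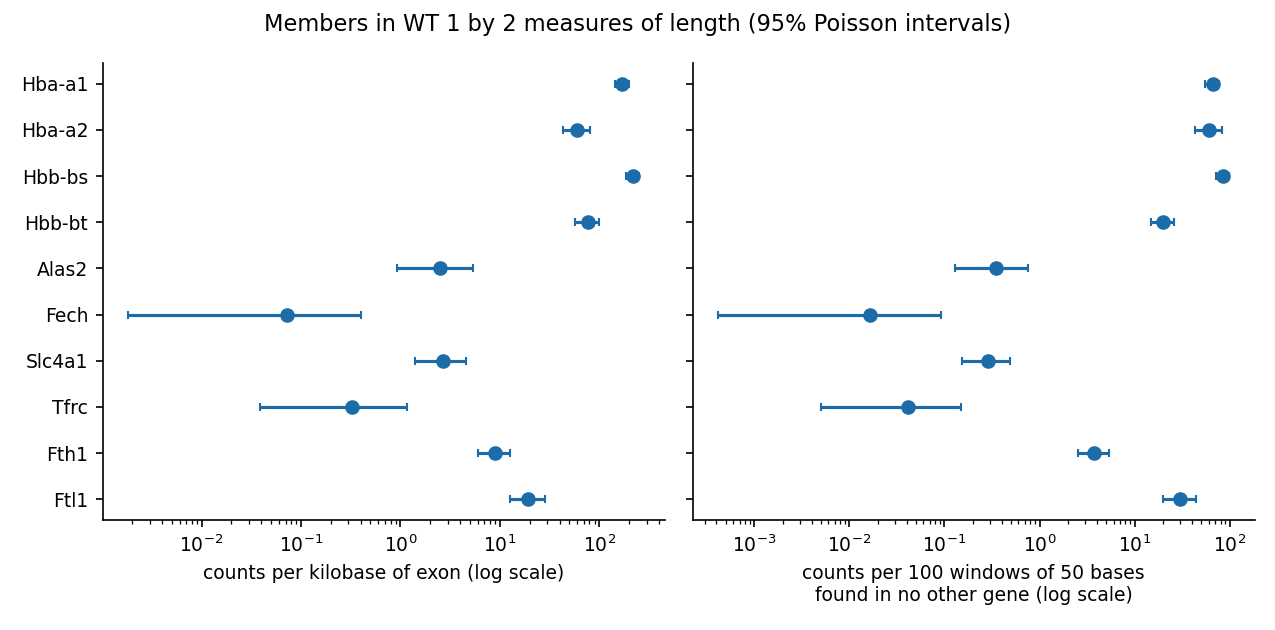
Level of each gene in WT 1 as counts per kilobase of exon (left) and as counts per 100 windows of 50 bases found in no other gene (right), both on log scales with 95% Poisson intervals. Ftl1 moves from 19.4 counts per kilobase, under all globins, to 30.2 per 100 windows, where its interval overlaps with that of Hbb-bt at 19.8.

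The globin counts outweighed the other genes. Globins made up 83.5% (exact interval 79.9 to 86.7) of the 480 counts of the 10 genes in WT 1, against 79 counts of heme, membrane and iron genes. In WT 2 they made up 0 of 7 counts, which allows up to 41.0%, and the Mat KO library had none to divide. The 6 genes other than globins lay at 37.8 per 10000 (30.3 to 47.1) in WT 1 and 30.4 (14.7 to 62.7) in WT 2, where all came from Fth1, so this sum did not differ between the WT libraries beyond counting error while the globin sum did. With the full heme, membrane and iron lists in place of the 6 genes, globins made up 57.1% in WT 1.

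Of the 10 genes 9 were counted in WT 1 alone. Among all 4349 genes with a count in WT 1, 89% were at 0 in both other libraries, 5.45% had a count in WT 2 and 6.74% had one with Mat KO. Of genes with at least 5 counts in WT 1, 9.12% and 11.2% had one, and of those with at least 50, mitochondrial and non-coding genes included, 55.9% and 50%. The share of 9 in 10 is near this background. Set against genes of like count, the 3 genes with at least 50 counts (Hba-a1, Hbb-bs and Hbb-bt) were at 0 in WT 2 where 45.0% of 20 nuclear protein-coding genes of that class had a count (Wilson interval 25.8 to 65.8), and in the Mat KO library where 15% had one (5.24 to 36.0). Of the 3 genes with 20 to 49 counts, Hba-a2, Fth1 and Ftl1, Fth1 was counted in WT 2, where 16.2% of 80 genes had a count, and none in the Mat KO library, where 21.2% had one. These classes include the described genes, so the 3 globins are among the 20 and lower the percentages they are set against. No majority at 0 is therefore read for that class in WT 2. Most genes with 20 to 49 counts were at 0 in both libraries, as were most with at least 50 in the Mat KO library.

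**Figure D3:**
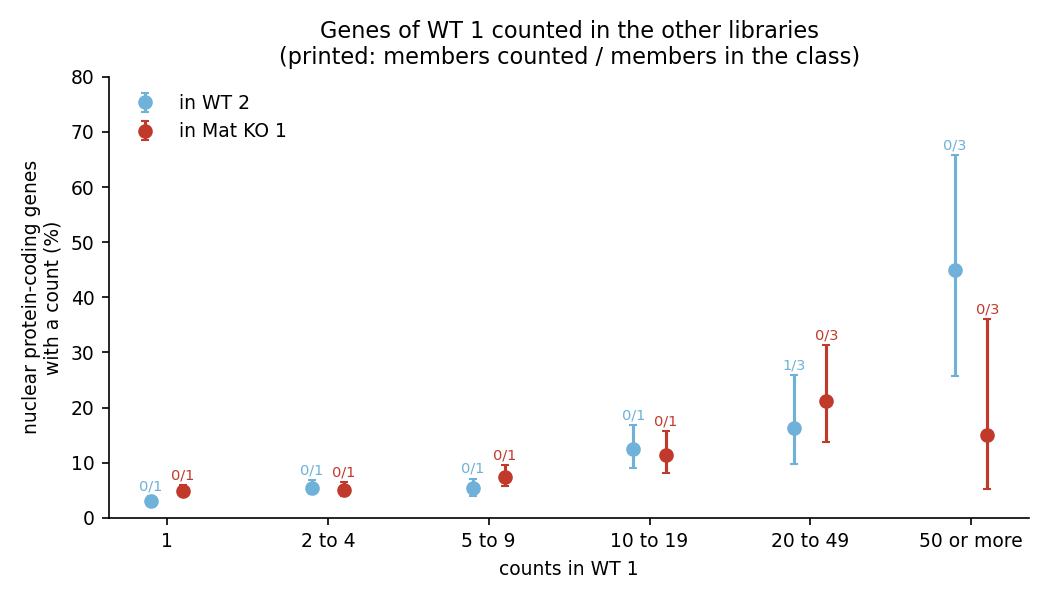
Percent of nuclear protein-coding genes that had a count in WT 2 or in the Mat KO library, by their count in WT 1, with 95% Wilson intervals. Printed fractions give the described genes counted over those in the class. In the class of 50 or more counts, which includes 3 globins, 45.0% of 20 genes were counted in WT 2 and 15% with Mat KO. Of these 3 globins 0 were counted in either.

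The test of Mat KO against WT called none of these genes. In edgeR's quasi-likelihood test 0 of 437 genes, or 0%, passed a false discovery rate of 0.05, with 0 at an unadjusted p under 0.05. DESeq2 and limma-voom also called 0 of 437, with 7 and 20 at an unadjusted p under 0.05. With 2 libraries against 1, each gene has 1 residual degree of freedom, and the test borrows its spread from the other tested genes. The test also assumes that the lone Mat KO library varies like WT. Of the 10 genes 6 passed the filter on low counts, through WT 1, and of these 5 were at 0 in both other libraries, so their negative direction was fixed by the filter. The log2 fold change was -5.97 (standard error 4.69) for Hbb-bs, -5.71 (4.65) for Hba-a1, -4.39 (4.63) for Hbb-bt and -3.98 (4.6) for Hba-a2, each with an adjusted p of 0.729 in edgeR. For Fth1 it was -4.06 (4.61) and for Ftl1 -3.41 (4.42), with the same adjusted p. The standard errors given here and below were worked back from each change and its test result, so they are no separate measure of spread. With a prior count of 0.5 in place of 2, the change of Hba-a1 became -7.68 and its standard error 6.26. Its unadjusted p in edgeR's quasi-likelihood test stayed at 0.220. The standard errors of all 6 genes rose in this way at an unchanged p, so no precision of the changes is read from them. Without WT 1, Fth1 lay at -3.44 and the other 5 at 0, a value of genes with no counts on either side. Without WT 2 the 6 values ran from -7.33 (Hbb-bs) to -4.69 (Ftl1).

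In the lists, 0 genes passed the test in either direction. The tested iron genes beside the ferritins, Trf, Hamp and Lcn2, also passed the filter through WT 1 and were at 0 in both other libraries, so their negative direction was fixed by the filter and no median is read from them. Of all 437 tested genes 28.4% were at 0 in both other libraries and 53.1% had a negative log2 fold change, with a median of -0.27. Epb41 at -0.61 (standard error 5.15, adjusted p of 0.990 in edgeR) and Bpgm at 1.11 (2.72, adjusted p of 0.876) were the listed red cell genes with counts in the Mat KO library.

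With the 10 genes themselves left out of the ranking, the nuclear protein-coding genes most like Hbb-bs over the 3 libraries, by Euclidean distance of log2(share per 10000 + 1), were S100a8 (distance 0.290, with 137, 0 and 0 counts), the collagen gene Col1a2 (0.322, with 134, 0 and 0), S100a9 (0.332), Ngp (0.933) and Ttr (1.14). Those most like Fth1 were Atp5b, a subunit of ATP synthase (0.822, with 17, 6 and 0 counts), the actin-binding gene Pfn1 (0.864, with 57, 6 and 0), the ribosomal protein gene Rps2 (0.870, with 23, 4 and 0), Ybx1 (0.871, with 16, 7 and 0) and Kif5a (1.11, with 21, 14 and 0). The distances rest on 3 libraries, and for Hbb-bs on WT 1 alone.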

How the data were processed

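Polysomal RNA-seq of mouse bone marrow cells from 2 WT libraries and 1 Mat KO library was read from the deposited tables, which hold raw counts of reads per Ensembl gene made by the authors with Trimmomatic, HISAT2 2.1.0 and HTSeq 0.11.2 on GRCm38, per the submitters' processing notes. The sources used here do not state the annotation release, strand setting or read length. Groups came from the title and genotype labels, and the Mat KO library, which has no number, is numbered 1. Library sizes and tests leave out the 5 HTSeq summary lines; gene counts were 15.1%, 11.8% and 9.99% of the reads recorded. Names and coordinates came from GENCODE M21 (GRCm38), which held 48435 of 48795 identifiers, and sequences from its transcripts.

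The test across genes was edgeR 4.0.16 (R 4.3.3, TMM, filterByExpr with a minimum count of 10 and total of 15, prior count 2, Benjamini-Hochberg at 0.05), beside DESeq2 1.42.0 and limma 3.58.1. The edgeR test was checked on simulated data of lower dispersion than the 3.88 fitted here, without the excess of the 4 most counted features. That check does not show how the test performs in libraries like these. Intervals used SciPy 1.17.1. The genes, 9 gene lists and 7 marker lists (212 of 214 symbols matched) were chosen with earlier results of these data known. Named genes were the 10, up to 4 others per list with the highest summed count, and the 5 nearest to Hbb-bs and Fth1; genes named for a count of 0 were chosen after seeing their values, and some listed genes are not reported here by name. The window comparison was added after seeing the data. Labels do not say whether WT libraries came from separate mice, so their spread may be technical.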

Additional observations from a re-analysis of the deposited data

How the results depend on the processing

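The count of genes called stayed at 0 under 9 alternatives of scaling, filter and tool. The 6 tested genes kept a negative log2 fold change in each of the 9 or 10 alternatives run for them, between -8.81 and -2.37. Each had 0 counts in the Mat KO library, so this direction was fixed and is not read as support. Adjusted p over the edgeR, DESeq2 and limma-voom fits lay between 0.271 and 0.930. Scaling moved the median over all tested genes from -0.27 to 0.31 with total counts alone, 1.04 in DESeq2 and 1.32 with library sizes from nuclear protein-coding genes. The values above are read against that shift. Upper quartile factors could not be fitted, since most genes of WT 2 are at 0. No paired analysis was possible because the labels give no number to the single Mat KO library.

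The alpha share of globin counts, 44.6%, was 54.7% per window of 50 bases found in no other gene, 60.0% per such window touching the coding sequence and 64.4% over windows of all annotated transcripts, and between 43.9% and 49.6% under 5 other weightings. The globin share of the 10 genes, 83.5%, was 94.0% per kilobase, 94.8% without Fth1 and Ftl1, 57.1% with the full lists and 86.9% per window. Fth1 to Ftl1, 1.19 in counts, was 0.461 per kilobase, 0.125 per window and 0.197 over windows of all annotated transcripts, and Fth1 in WT 2 to WT 1, 2.05, was 0.0609 over all gene counts. Against all gene counts the levels in WT 1 were 2153 CPM for Hba-a1, 620 for Hba-a2, 2603 for Hbb-bs, 837 for Hbb-bt, 93.0 for Alas2, 201 for Slc4a1, 480 for Fth1 and 403 for Ftl1, and 29.2 CPM for Fth1 in WT 2. Scales are set by how much of each library the 4 most counted features take; for the other shifts the cause was not tested.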
